A study of Cricetulus griseus with 5 samples.

Results

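Collagens, laminins and integrins build the matrix that cells sit on and the receptors that hold them to it, and here their probes were followed through 5 self-self microarrays of the A23 cell line. The members were every probe whose single gene symbol in the array platform's annotation named a collagen chain, a laminin chain or an integrin subunit, without the integrin-binding proteins Itgb1bp and Itgb3bp. This gave 79 probes of 74 genes, out of 20868 probes in all, of which 17786 had 1 symbol. They comprised 40 probes of 39 collagen genes, 10 probes of 10 laminin genes and 29 probes of 25 integrin genes.

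A23 is a Chinese hamster fibroblast line that lacks thymidine kinase and serves as the recipient cell in radiation hybrid panels. Total RNA of A23 was put in both channels of every array, 20 µg per labelling, Cy5 being the dye of channel 1 and Cy3 that of channel 2, and no genotype, treatment or time differs between arrays. The 5 arrays form 1 group, numbered as replicates 1 to 5. The series' design text calls them controls for the power to detect cis ceQTLs, loci whose copy number goes with the expression of a gene close by. Nothing in the labels tells whether separate cultures were used, so every p-value rests on an array-to-array spread that may be technical alone. Each value is a log ratio of the channels, with 0 for equal signal. It was read as log10, though the log base is not stated, nor which channel is on top, so a sign has no dye attached. No signal level was available, so whether A23 expressed a given member, or any marker of a fibroblast, could not be checked here.

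Collagens are triple helices of 3 chains. Fibrillar types form the ropes of connective tissue, type IV forms the sheet of basement membranes, and type VI forms beaded filaments. Laminins are crosses of an alpha, a beta and a gamma chain in basement membranes. Integrins pair an alpha with a beta subunit and link such matrix to the actin skeleton. Fibroblasts secrete collagens I, III, V and VI and hold on through integrins that contain beta 1, beta 5 or alpha V. Epithelial cells anchor through laminin chains alpha 3 and beta 3, collagen XVII and the integrin alpha 6 beta 4. Leukocytes use the beta 2 and beta 7 integrins.

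Members were therefore set in 3 classes from textbook roles. Fibroblast-type members had 22 probes of 19 genes, epithelial members 11 probes of 9 genes and leukocyte members 8 probes of 8 genes. The remaining 38 probes, such as cartilage collagens, stayed unclassed. Classes are not exclusive in biology: Itgb1, Lamc1, Itgav and Itga3, for example, are used by many cell types. Col6a3, Col12a1 and Itgad belong to the class lists but were not analysed here.

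Ratios of fibroblast-type members repeated more closely from array to array than those of epithelial or leukocyte members. The median between-array SD was 0.0375 log units over the 22 fibroblast-type probes, 0.0726 over the 11 epithelial probes and 0.0880 over the 8 leukocyte probes, beside 0.0588 over all 20868 probes. Leave-one-array-out (jackknife) standard errors of the 3 class medians were 0.0120, 0.0120 and 0.0204. Below the median SD of all probes lay 14 of 22 fibroblast-type, 2 of 11 epithelial and 2 of 8 leukocyte probes. Fibroblast-type minus pooled epithelial and leukocyte members, the difference of medians was -0.0429, with a jackknife standard error of 0.0180 (n = 5 arrays). Without array 2 the difference was -0.0274, and its sign was the same without any other array. Without the genes that many cell types use, the class medians were 0.0559, 0.131 and 0.0804, the first of them close to the median of all probes. Low median SDs were not particular to fibroblast-type members. In the related gene lists given below they were 0.0319 for collagen making, 0.0320 for basement membrane partners and 0.0419 for integrin adaptors. Members are not replicates of each other, so no test was made of the difference between classes.

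**Figure D1:**
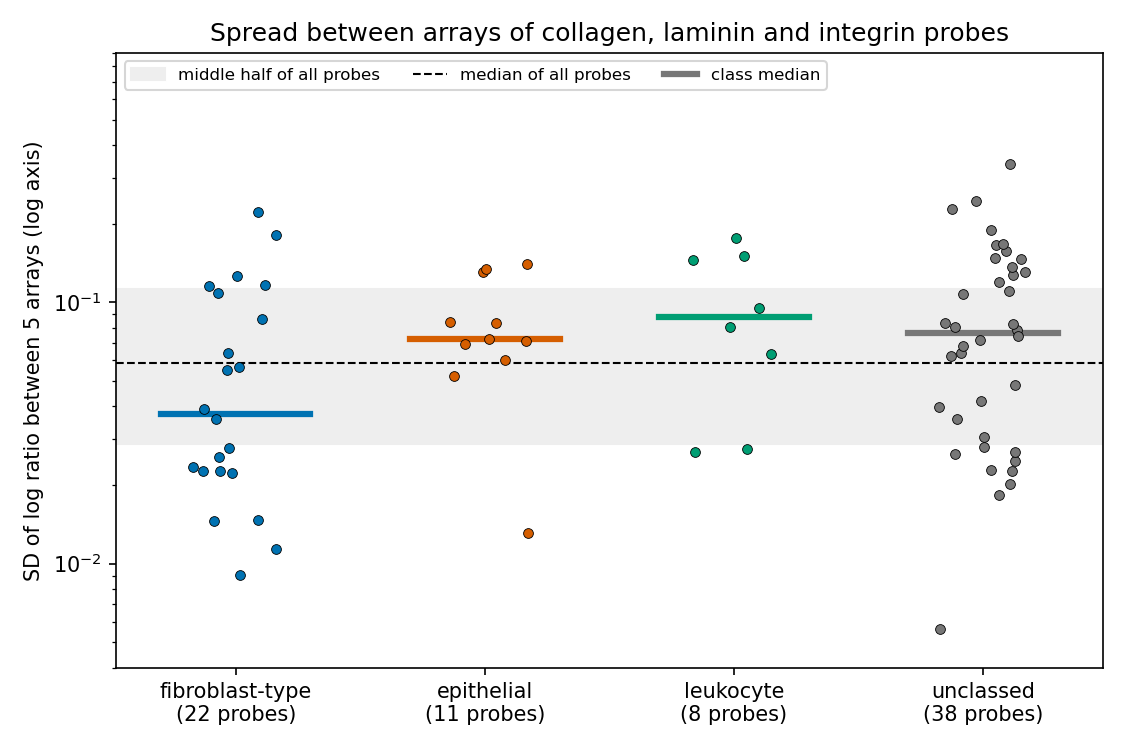
SD of the log ratio between the 5 arrays for each of the 79 probes, on a log axis, by class; thick bars are class medians, the dashed line is the median of all 20868 probes and the grey band spans their 25th to 75th percentile. Fibroblast-type probes gather lower, at a median of 0.0375, than epithelial (0.0726) and leukocyte probes (0.0880), and all classes overlap.

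The classes overlapped widely. Fibroblast-type SDs ran from 0.00904 to 0.221, epithelial ones from 0.0131 to 0.141 and leukocyte ones from 0.0269 to 0.176. An SD from 5 values is itself loose: assuming normal values, its 95% interval runs from 0.599 to 2.87 times the estimate. Exact zeros, values listed as 0 in the table, touched 6 of the 22 fibroblast-type probes, 2 of the 11 epithelial and 0 of the 8 leukocyte probes. Among probes with no exact zero the medians were 0.0266 for 16 fibroblast-type, 0.0710 for 9 epithelial and 0.0880 for 8 leukocyte probes, beside 0.0468 for 15507 probes of the whole table.

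**Figure D2:**
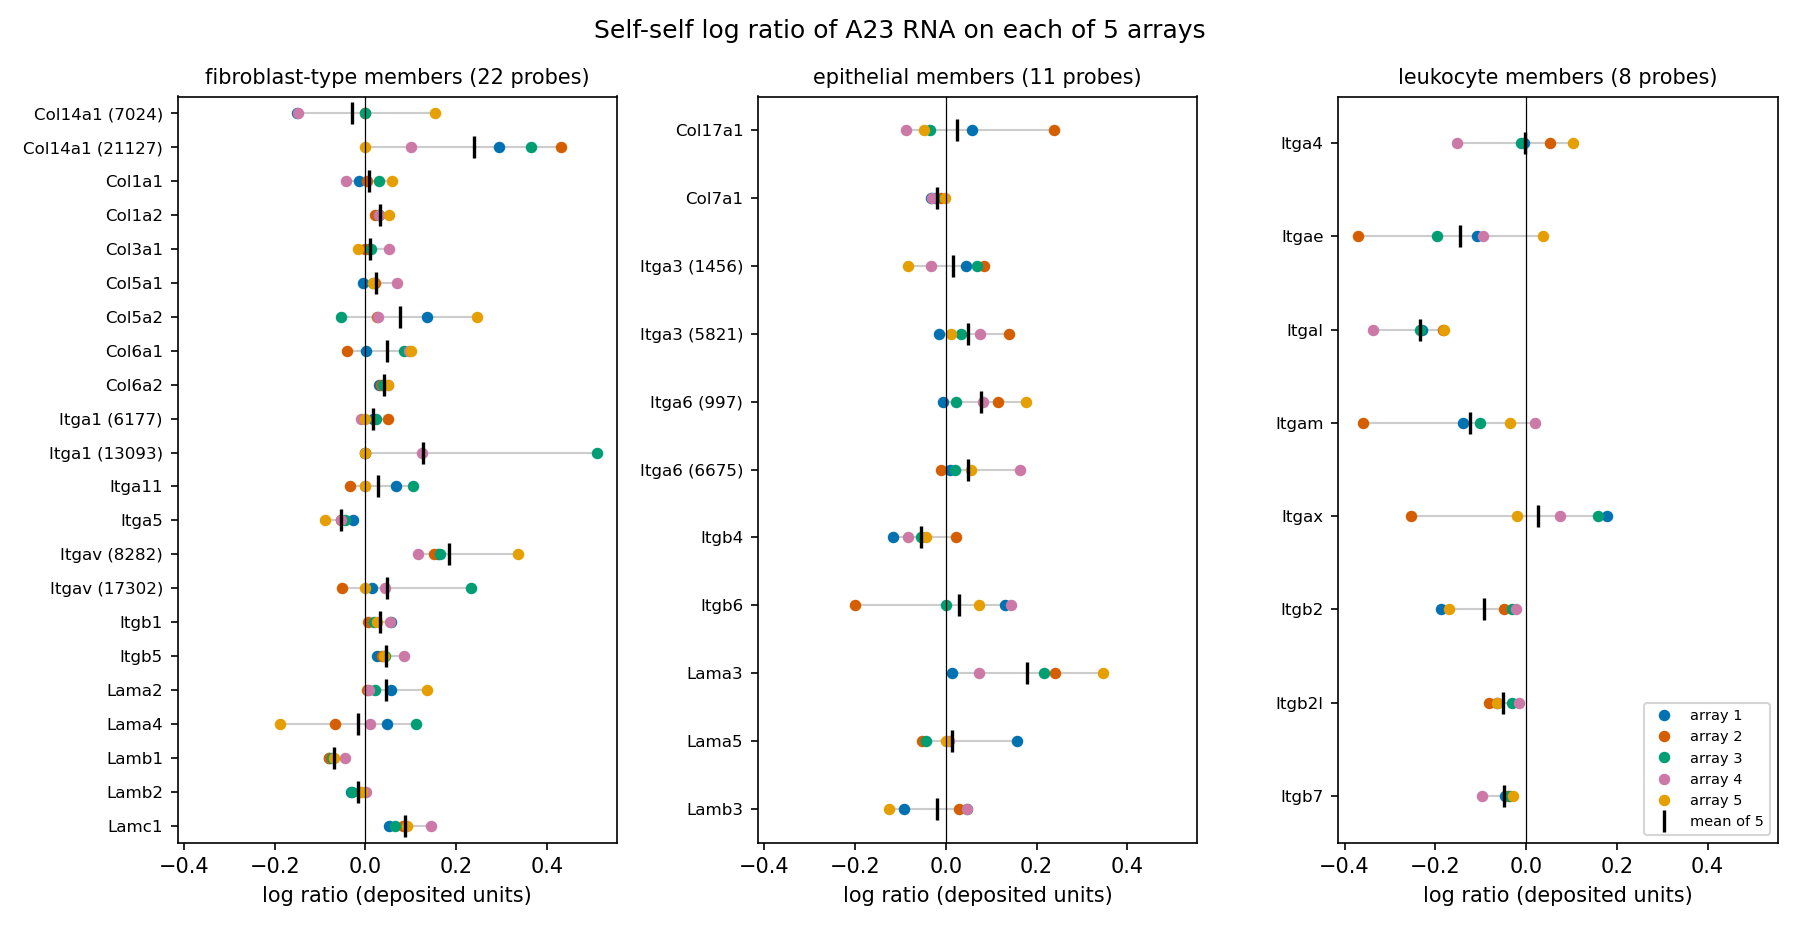
Log ratio (deposited units) on each of the 5 arrays, 1 row per probe, for fibroblast-type, epithelial and leukocyte members; colours mark arrays, black ticks the mean, and numbers in parentheses tell apart 2 probes of a gene. Col1a2, Col6a2, Lamb1 and Col7a1 keep their 5 points together, while Itga1 (13093), Itgam and Itgax spread widely.

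Among fibrillar collagens of the fibroblast type, the chains of collagen I and the single chain of collagen III stayed near 0. Col1a2, the alpha 2 chain of collagen I, gave 0.0309, 0.0214, 0.0307, 0.0305 and 0.0521 on arrays 1 to 5. It was positive on every array with a mean of 0.0331 ± 0.0113 (SD, n = 5), and did not pass (limma adjusted p = 0.0810). Its partner chain Col1a1 gave -0.0137, 0.00392, 0.0302, -0.0437 and 0.0578, which straddles 0 with a spread larger than its mean of 0.00690 ± 0.0391. Col3a1, the only chain of collagen III, averaged 0.0107 ± 0.0256. The collagen V chains, which set the width of collagen I fibrils, differed in tightness. Col5a1 averaged 0.0237 ± 0.0277, and Col5a2 ranged from -0.0546 on array 3 to 0.246 on array 5 with an SD of 0.117.

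The beaded-filament chains Col6a1 and Col6a2 had like means and unlike spreads. Col6a2 gave 0.0295, 0.0343, 0.0396, 0.0498 and 0.0494, the tightest of the fibroblast-type probes, with a mean of 0.0405 ± 0.00904 (SD, n = 5; limma adjusted p = 0.0564). Col6a1 gave 8.74e-05, -0.0398, 0.0858, 0.0954 and 0.0995, so that arrays 3 to 5 sat together above arrays 1 and 2. Its mean was 0.0482 ± 0.0639. Col6a1 and Col6a2 lie next to each other in the hamster RefSeq gene order, and their difference of 0.00769 ± 0.0565 had both signs over the arrays.

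Laminin chains of the fibroblast type held the 1 of 22 class probes that passed the threshold (4.55%, near the 3.42% of all probes). Lamb1, the beta 1 chain, gave -0.0805, -0.0812, -0.0730, -0.0455 and -0.0696. All 5 arrays were negative, array 4 nearest to 0, with a mean of -0.0699 ± 0.0145 (SD, n = 5; limma adjusted p = 0.0363), a size of 1.17-fold if log10. The call was lost without any 1 array, after quantile normalization (limma adjusted p = 0.0503) and with zeros as missing (0.0552). Without 1 array at most 0.302% of all probes passed, so that loss was not particular to Lamb1. Lamc1, the gamma 1 chain that pairs with beta 1 in most laminins, was positive throughout at 0.0513, 0.0831, 0.0658, 0.145 and 0.0912. It did not pass (mean 0.0873 ± 0.0359, limma adjusted p = 0.0568). These 2 chains of the same protein trimer gave ratios that did not overlap, with opposite signs on every array. The contrast was singled out from the values and was not tested. Having 1 sign on all arrays was common, at 26.4% of all probes. Lamb2, the beta 2 chain of muscle and kidney basement membranes, averaged -0.0162 ± 0.0148. Lama2 of muscle laminin averaged 0.0447 ± 0.0551. Lama4, of vessel and fat basement membranes, ranged from -0.187 on array 5 to 0.111 on array 3.

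Among fibroblast-type integrin probes, Itgb1, Itgb5 and Itga5 had the smallest SDs, followed by Itga1 on feature 6177 at 0.0234. Itgb1, the beta 1 subunit shared by most matrix receptors, gave 0.0555, 0.00522, 0.0186, 0.0541 and 0.0255, and Itgb5, a partner of alpha V, gave 0.0254, 0.0362, 0.0433, 0.0846 and 0.0415. Both were positive on all arrays, with means of 0.0318 ± 0.0223 and 0.0462 ± 0.0226 (SD, n = 5; limma adjusted p = 0.149 and 0.0841). Itga5, the alpha chain of the fibronectin receptor, was negative on all arrays at -0.0279, -0.0548, -0.0454, -0.0530 and -0.0898 (mean -0.0542 ± 0.0226, limma adjusted p = 0.0666). Itga11, a collagen receptor subunit of fibroblasts, was listed at exactly 0 on arrays 4 and 5 and lay between -0.0336 and 0.106 on the others.

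Among the 11 epithelial probes 0 passed the threshold in limma (background 3.42%) and 2 had an unadjusted p under 0.05 (background 27.3%). Lama3, the alpha 3 chain of the laminin that anchors epidermis, gave 0.0137, 0.240, 0.216, 0.0732 and 0.347. All arrays were positive, but the values spread over most of the range, with a mean of 0.178 ± 0.134 (SD, n = 5; limma adjusted p = 0.123). Its partner Lamb3 had arrays 1 and 5 at -0.0919 and -0.125 and arrays 2, 3 and 4 at 0.0302, 0.0471 and 0.0466. Lama5, the alpha 5 chain of most adult epithelial basement membranes, lay between -0.0529 and 0.00637 on 4 arrays and at 0.157 on array 1.

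The transmembrane collagen Col17a1 was among the wider epithelial probes, and the anchoring-fibril collagen Col7a1 was the tightest. Col17a1 gave 0.0570, 0.238, -0.0354, -0.0884 and -0.0483 (SD 0.131). Col7a1 gave -0.0320, -0.0106, -0.0245, -0.0298 and -0.00172 (SD 0.0131), negative throughout. Fibroblasts also make collagen VII. Among the epithelial integrins, Itgb4 of the hemidesmosome averaged -0.0550 ± 0.0522 with array 2 alone positive. Itgb6, induced in healing epithelium, ran from -0.200 on array 2 to 0.144 on array 4 and was listed at exactly 0 on array 3.

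Leukocyte integrins leaned negative. Mean ratios below 0 were found for 5 of 22 fibroblast-type, 3 of 11 epithelial and 7 of 8 leukocyte probes, and over all probes 9761 means were negative and 10695 positive. The median ratio of fibroblast-type members was 0.0205, 0.00319, 0.0305, 0.0364 and 0.0206 on arrays 1 to 5, and that of leukocyte members was -0.0860, -0.133, -0.0338, -0.0584 and -0.0324. The class medians by array did not overlap, with fibroblast-type members above 0 and leukocyte members below 0 on each array. Scaling divides each array by a positive number, which cannot change the sign of a value. After scaling, the class medians of the means were 0.0357 for fibroblast-type and -0.0734 for leukocyte members. After quantile normalization, which keeps the order of probes within an array, they were 0.0361 for fibroblast-type and -0.0741 for leukocyte members. Neither setting is therefore a separate check of these signs.

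Itgal, the alpha L chain of the lymphocyte receptor LFA-1, was the 1 of 8 leukocyte probes past the threshold (12.5%, beside 3.42% of all probes). It gave -0.230, -0.184, -0.234, -0.338 and -0.182, far from 0 on every array, with a mean of -0.234 ± 0.0635 (SD, n = 5; limma adjusted p = 0.0330), 1.71-fold if log10 and 1.18-fold if log2. With 1 array left out, at most 0.302% of all probes passed. Itgal lost the call without any 1 array (limma adjusted p from 0.0715 to 0.137) and in the unmoderated test (adjusted p = 0.0528). Its beta partner Itgb2, shared by the leukocyte receptors of this family, gave -0.187, -0.0476, -0.0307, -0.0223 and -0.171, negative throughout with arrays 1 and 5 apart from the rest (mean -0.0917 ± 0.0804, limma adjusted p = 0.161). Itgb2l and the gut-homing beta subunit Itgb7 were negative on every array at -0.0516 ± 0.0269 and -0.0493 ± 0.0274.

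The myeloid and mucosal alpha chains varied more. Itgam, the alpha M chain of the complement receptor on macrophages and neutrophils, gave -0.139, -0.359, -0.102, 0.0203 and -0.0364 (SD 0.145). Itgax, the alpha X chain that marks dendritic cells, gave 0.178, -0.254, 0.158, 0.0739 and -0.0208 (SD 0.176). Itgae, the alpha E chain of intraepithelial lymphocytes, ran from -0.370 on array 2 to 0.0366 on array 5. In all 3 the lowest value was on array 2, the array with the widest spread over all probes (SD 0.174, against 0.119 to 0.127 on the others). Its part in these values was not tested. Itga4, which pairs with beta 1 or beta 7 and is not limited to leukocytes, averaged -0.00245 ± 0.0955.

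**Figure D3:**
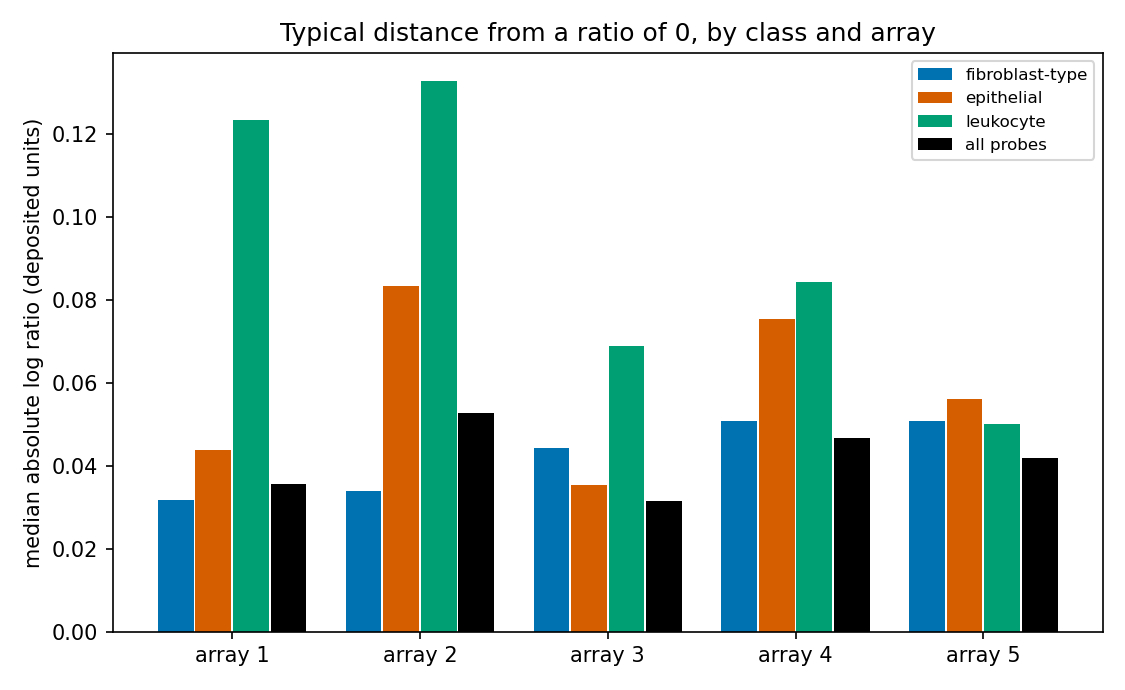
Median absolute log ratio (deposited units) on each array for fibroblast-type, epithelial and leukocyte members and for all 20868 probes. Fibroblast-type bars are lower than leukocyte bars on arrays 1 to 4 and level with them on array 5, at 0.0508 for fibroblast-type and 0.0502 for leukocyte members.

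On single arrays the distance from 0 followed the same order less strictly. The median absolute ratio on arrays 1 to 5 was 0.0319, 0.0339, 0.0443, 0.0508 and 0.0508 for fibroblast-type members. For pooled epithelial and leukocyte members it was 0.0644, 0.0833, 0.0361, 0.0755 and 0.0562. Fibroblast-type members were thus closer to 0 on 4 of the 5 arrays and farther on array 3. Over all probes it was 0.0357, 0.0527, 0.0317, 0.0468 and 0.0419, which fibroblast-type members undercut on arrays 1 and 2 alone.

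Taking all members together, 3 of 79 probes (3.80%) passed limma's moderated test against a ratio of 0 after Benjamini-Hochberg adjustment over all probes, beside a background of 3.42% of the 20868 probes. The share was thus close to the background. They were Lamb1 and Itgal, negative (background 2.00%), and Col8a1, positive (background 1.41%). Col8a1, a short-chain collagen of vessel walls and the cornea, gave 0.0972, 0.128, 0.0859, 0.107 and 0.0749, with a mean of 0.0985 ± 0.0202 (SD, n = 5; limma adjusted p = 0.0288), 1.25-fold if log10. With any 1 array left out, 0 members passed, and the share over all probes was 0.0192% to 0.302%. At an unadjusted p under 0.05 there were 32 members (40.5%, background 27.3%), and 29 (36.7%, background 26.4%) had 1 sign on all arrays. At least 1 exact zero was found in 13 members (16.5%, background 25.7%). Since a probe with a zero cannot have 1 sign throughout, the shares with 1 sign among probes without zeros were 43.9% of 66 members and 35.5% of 15507 probes.

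**Figure D4:**
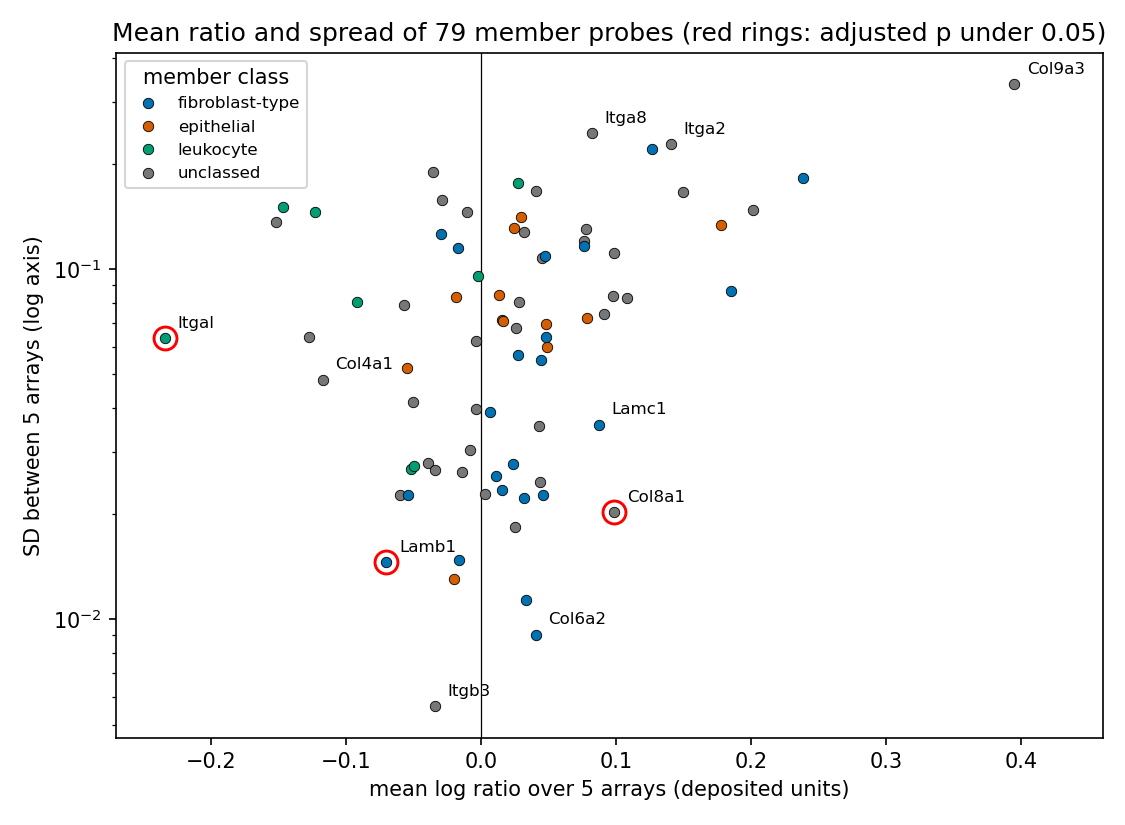
Mean log ratio over 5 arrays (deposited units) against the SD between arrays (log axis) for the 79 member probes, coloured by class; red rings mark the 3 with an adjusted p under 0.05. Col8a1 and Lamb1 combine a modest mean with a small SD, Itgal has a larger mean, and Col9a3, with the largest mean (0.395), also has the largest SD (0.337).

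Basement membrane collagens, type IV, held a contrast between neighbours, singled out after the values were seen. Col4a1 and Col4a2 encode the paired chains of the commonest type IV network and lie side by side in the hamster gene order. Col4a1 gave -0.137, -0.110, -0.0636, -0.0860 and -0.188, and Col4a2 gave -0.000274, 0.00812, 0.0253, 0.0150 and -0.0346. The probes did not overlap, and Col4a1 minus Col4a2 was negative on 5 of 5 arrays at -0.120 ± 0.0262 (SD, n = 5; exact two-sided sign-flip permutation test p = 0.0625, the smallest that 5 arrays allow, 0.281 adjusted over 9 pairs). The contrast was not particular to this pair. Itgam minus Itgax, also neighbours, was negative on 5 of 5 arrays at -0.150 ± 0.132, though their ranges overlapped. The same sign-flip permutation test gave p = 0.0625 for them, 0.281 adjusted over 9 pairs. Col6a1 minus Col6a2 and Itga1 minus Itga2, the other neighbours, had both signs over the arrays. Col4a1 alone just missed the threshold (limma adjusted p = 0.0538). Col4a3, of the kidney filter, and its partner Col4a4 were added after the values were seen. Col4a3 was negative on all arrays at -0.128 ± 0.0638, and Col4a4 ranged from -0.172 to 0.158.

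Cartilage collagens had SDs from 0.0183 to 0.337. Col2a1, the main cartilage fibril chain, was the steadiest of them, at 0.0249 ± 0.0183 and between 0.0121 and 0.0564. Col11a2, a chain that limits the width of those fibrils, was negative on all arrays at -0.0598 ± 0.0226 (SD, n = 5; limma adjusted p = 0.0590). Col9a3, a fibril-surface collagen chain, had both the largest mean and the largest SD of the members, at 0.331, 0.851, 0.529, 0.338 and -0.0757. Array 5 alone was negative, and the mean of 0.395 ± 0.337 did not pass (limma adjusted p = 0.150). The other chains of that collagen, added after the values were seen, averaged 0.0981 ± 0.111 for Col9a1 and -0.0139 ± 0.0263 for Col9a2.

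Large mean ratios among the other unclassed members came with large spreads. Col6a6, a collagen VI chain, gave 0.176, 0.460, 0.106, 0.107 and 0.160 (mean 0.202 ± 0.148). Col24a1, a fibrillar chain of bone, ranged from 0.00605 to 0.421, and Lamc3, the gamma 3 chain, from -0.340 to -0.00672. Single arrays carried other spreads. Itga8, a mesenchymal subunit, was at 0.515 on array 1 and between -0.0595 and 0.0165 on the others, and Col25a1, a transmembrane collagen of neurons, was at 0.339 on array 5 and between -0.0451 and -0.00521 on the others. Itga9 ran from -0.319 on array 5 to 0.170 on array 4. The 18 members not named, 15 collagens and 3 integrins, had mean ratios from -0.0504 to 0.108 and SDs from 0.0247 to 0.157. None of the 18 passed (limma adjusted p from 0.0997 to 0.943), and 4 had 1 sign on all arrays.

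Itgb3, the beta 3 subunit of platelets and of the vitronectin receptor, was the steadiest of the 79 probes. It gave -0.0328, -0.0276, -0.0321, -0.0365 and -0.0427, a mean of -0.0343 ± 0.00564 that did not pass in the moderated test (limma adjusted p = 0.0632). Members listed at exactly 0 on 3 arrays among the unclassed were Itga2, the collagen receptor of platelets and epithelia, Lama1, the early embryonic alpha 1 chain, and Col19a1. Itga2 was at 0.522 and 0.183 on arrays 3 and 5, and Lama1 at 0.180 and -0.231 on arrays 3 and 4, so their nonzero values were large. Zeros were most frequent on array 5 among members, 10 of 79, as over all probes (20.8%).

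In 3 of the 5 genes with 2 probes, the probe means differed by over 0.1 or in sign. The sign-flip permutation test given below cannot decide on these differences, since its smallest possible p with 5 arrays is 0.0625. Col14a1, a collagen that decorates fibrils, gave 0.295, 0.430, 0.365, 0.101 and 0 on feature 21127, and -0.152, 0, 0, -0.148 and 0.152 on feature 7024. Itgav, the alpha V subunit, was positive on all arrays on feature 8282 (mean 0.185 ± 0.0864, limma adjusted p = 0.0616) and averaged 0.0474 ± 0.109 on feature 17302. Itga1, a collagen receptor subunit, was tight on feature 6177 (0.0156 ± 0.0234) and listed at 0 on 3 arrays but 0.510 on array 3 on feature 13093. Differences between the probes had both signs over the arrays in each of these 3 genes, and exact two-sided sign-flip permutation p-values were 0.125, 0.125 and 0.500 for Col14a1, Itgav and Itga1 (n = 5; adjusted over 9 pairs 0.281, 0.281 and 0.563). For Itga3 and Itga6, laminin receptor subunits, the probe means differed by 0.0323 and 0.0305.

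**Figure D5:**
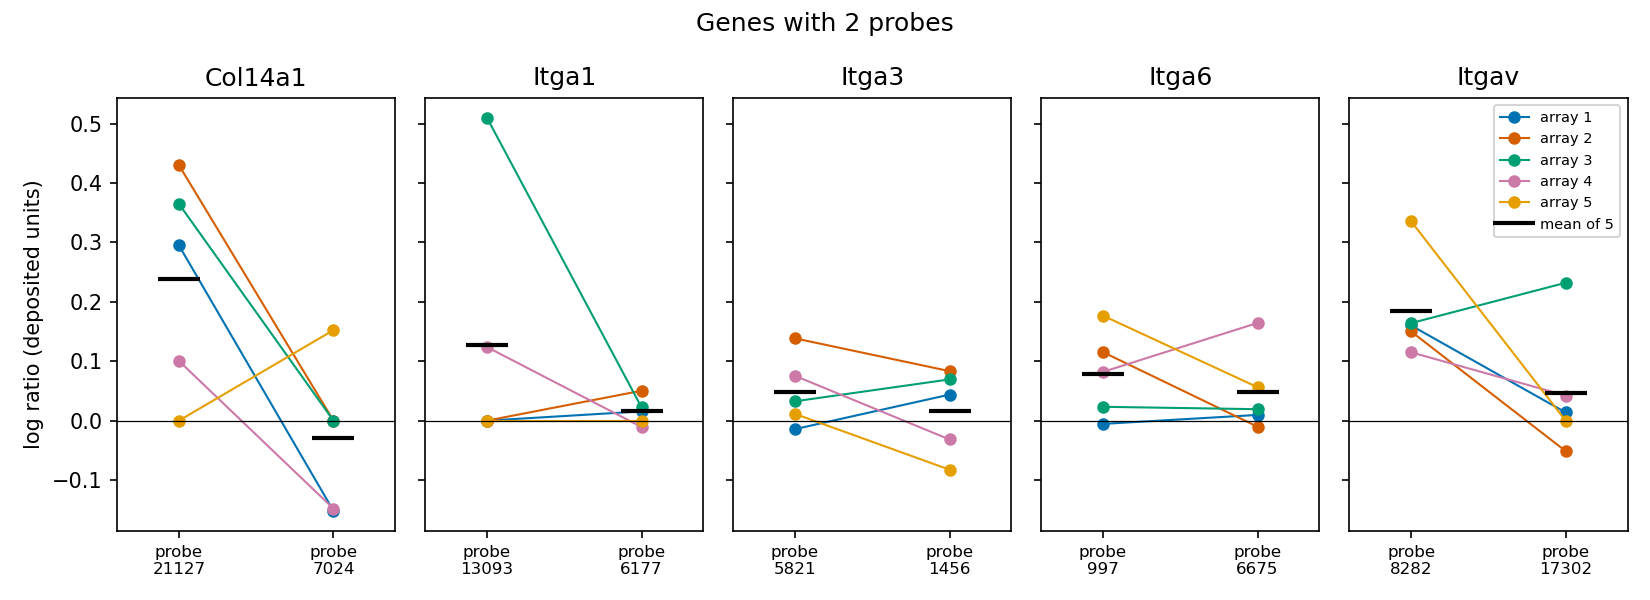
Log ratio (deposited units) of both probes of the 5 genes with 2 probes; lines join the values of 1 array and black bars are means of 5 arrays. The probes of Col14a1 and Itgav are farthest apart, with means that differ by 0.268 and 0.138, and the lines cross.

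Arrays resembled each other moderately over the members. Across the 79 probes, Pearson's r between arrays ran from 0.177 (arrays 4 and 5) to 0.513 (arrays 2 and 3) over the 10 pairs, with a median of 0.400, beside a median of 0.368 over all probes. All arrays share the dye orientation and the probe set, and probes are not independent replicates. For 26 of the 79 probes the value farthest from the probe's own median was on array 5, for 21 on array 4 and for 18 on array 2.

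The power to detect cis ceQTLs, for which these controls were made, was not computed. What was computed is the smallest mean ratio of a single probe that 5 arrays would tell from equal signal. With a power of 0.8 at an unadjusted alpha of 0.05, it was 1.68 times the probe's SD. Read as log10, the median was 1.16-fold for fibroblast-type, 1.33-fold for epithelial and 1.41-fold for leukocyte members, beside 1.26-fold for all probes. Under 1.5-fold lay 16 of 22 fibroblast-type, 8 of 11 epithelial and 5 of 8 leukocyte probes (72.1% of all probes). Extremes ran from 1.02-fold for Itgb3 to 3.69-fold for Col9a3.

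Genes that make, fasten or read the matrix proteins gave mostly uncalled ratios. Of 24 probes for collagen-making enzymes and chaperones, 0 passed in limma (8 at an unadjusted p under 0.05, or 33.3%), beside a background of 3.42% past the threshold and 27.3% at an unadjusted p under 0.05. Their median mean ratio was 0.00787. The lowest p was that of Loxl1, a lysyl oxidase-like crosslinking enzyme (0.0678 ± 0.0319, SD, n = 5; limma adjusted p = 0.0701), next to the collagen chaperone Serpinh1 at 0.0756 ± 0.0375 and the prolyl hydroxylase P3h2 at -0.162 ± 0.105. Of 15 probes for basement membrane partners, 0 passed in limma (2 at an unadjusted p under 0.05, or 13.3%), beside the same background shares. Fibronectin (Fn1), the matrix protein that Itga5 binds, had the lowest p there at -0.0443 ± 0.0218, before the calcium-binding Smoc1 at -0.0387 ± 0.0333 and the syndecan Sdc4 at 0.0209 ± 0.0164.

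Integrin adaptors, which tie integrin tails to actin, had 3 of 34 probes past the threshold (8.82%, background 3.42%). At an unadjusted p under 0.05 in limma there were 18 (52.9%, background 27.3%). The bundling protein Actn4 stood at 0.0902 ± 0.0279 (SD, n = 5; limma adjusted p = 0.0448), the focal adhesion protein Zyx at 0.0710 ± 0.0224 (0.0488) and the parvin Parvb at -0.0424 ± 0.00740 (0.0499). Each call was lost with any 1 array left out, where at most 0.302% of all probes passed. Each was also lost after quantile normalization and with zeros as missing. Fermt3, the kindlin of blood cells, was negative on all arrays at -0.147 ± 0.0650, and Fermt2, that of fibroblasts, positive at 0.0400 ± 0.0146, neither past the threshold. The tetraspanin Cd151, a partner of laminin-binding integrins, averaged 0.0629 ± 0.0336.

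Marker genes of the 3 cell types, set beside the classes, had median SDs of 0.0265 for 11 fibroblast probes, 0.0532 for 15 epithelial and 0.0598 for 12 leukocyte probes. Mean ratios below 0 were found for 6 of 11 fibroblast, 10 of 15 epithelial and 8 of 12 leukocyte marker probes, so the positive lean of fibroblast-type members was not seen in the fibroblast markers. Past the threshold were 0 of 11 fibroblast, 1 of 15 epithelial (6.67%) and 0 of 12 leukocyte marker probes, beside 3.42% of all probes. The called probe was that of the epithelial desmosome protein Dsp at -0.510 ± 0.0692 (SD, n = 5; limma adjusted p = 0.0124). Exact zeros were found on 1 array for Thy1 among fibroblast markers, on 4 for Ovol1, 3 for Pkp1, 2 for Cdh1 and 1 for Ocln among epithelial markers, and on all 5 for Ptprc alone among leukocyte markers.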

How the data were processed

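Per the labels' protocols, A23 total RNA was labelled directly and hybridised with Cy5 as channel 1 and Cy3 as channel 2. The deposited values are 1 log ratio per probe and array, with a median of 0 in each column, values of both signs and many exact zeros. The deposited ratios were read as log10, the form in which Agilent's software writes log ratios, but the values do not settle the base. Image quantification and the treatment of background and dyes were not given in the sources used here. Precision is limited by the number of arrays. Columns of samples outside the series numbered 0. Slides and scan dates were not analysed here, and no batch was therefore tested.

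Genes were named by the platform annotation, of the mouse, in which 17786 probes had 1 symbol, 16 several and 3066 none. The RNA was of the hamster, and how well each probe matches the hamster transcript of its named gene could not be computed. Which genes are neighbours was taken from the RefSeq hamster table (assembly CriGri-PICRH-1.0), in which 64 of 74 member symbols matched. Each probe's mean ratio was tested against 0 in limma 3.58.1 (R 4.3.3; lmFit with an intercept, eBayes), with Benjamini-Hochberg adjustment over all 20868 probes and a threshold of 0.05. The fit was tested on simulated data. Class values are medians over probes, and values are mean ± SD over 5 arrays.

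Members, classes and lists were chosen with earlier results of these data known. Named were members past the threshold, all class members, the 5 unclassed members with the largest mean, largest SD and smallest SD, those at 0 on 3 or more arrays, genes whose probes differed in sign or by over 0.1, and the called or up to 3 leading probes of each related list. Alternatives were quantile normalization, scaling, median centring, array weights, a robust fit, an unmoderated test, 2 treatments of exact zeros, gene averages, narrower classes and leaving out each array. The range in place of the SD and a limit of 1 exact zero were added after seeing the data. So were the named members Col4a1, Col4a3, Col4a4, Col9a1 and Col9a2, which no naming rule had picked.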

Additional observations from a re-analysis of the deposited data

Results flagged for a closer look

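Among 76 sets of 5 values examined, 68 named probes and 8 class medians by array, 11 had 1 array far from the other 4 by Dixon's test at 95%. Chance marks about 1 in 20 sets of normal values, but some probes were named for a large mean or SD, so that rate is no yardstick for them. By the same test 1 array stood apart for 10 of all 79 members (12.7%) and 2896 of 20868 probes (13.9%), so the members' share was close to that of all probes. Fibroblast-type members were Itga1 on feature 13093, at 0.510 on array 3, and Itgav on feature 8282, at 0.336 on array 5 against 0.115 to 0.164 on the others. The epithelial member was Lama5 at 0.157 on array 1, and the leukocyte member was Itgb7 at -0.0970 on array 4. Unclassed members were Col6a6 at 0.460 on array 2, Itga8 at 0.515 on array 1, Col25a1 at 0.339 on array 5 and Col2a1 at 0.0564 on array 4. In the related lists, Smoc1 was at -0.0973 on array 2, and Sdc4 and Zyx were at 0.0493 and 0.110 on array 4. Each of the 5 arrays was the outlying one at least once, and array 4 was so for Itgb7, Col2a1, Sdc4 and Zyx.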

How the results depend on the processing

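The count of members past the threshold, 3, depended on the fit and on the number of arrays. It was 5 after scaling (background 4.58%), 19 with the robust fit (background 19.4%), 11 with array weights (background 7.58%) and 8 among probes with no exact zero (background 8.54%). It was 0 without replicate 1, 2, 3, 4 or 5, where the background was 0.0192% to 0.302%. Median centring, quantile normalization, the unmoderated test, zeros as missing and gene averages gave 3, 2, 4, 2 and 3, beside backgrounds of 3.42%, 2.53%, 2.03%, 1.86% and 2.45%. Of the 3 members, Col8a1 passed in 8 of 8 alternatives fitted to single probes, other than leaving out an array, Itgal in 7 and Lamb1 in 6. All 3 also passed with gene averages, which are not counted among the 8. Median centring, which is counted among them, changed no value because each array's median was already 0. Lamb1 had adjusted p = 0.0503 in limma after quantile normalization and 0.0552 with zeros as missing, and Itgal had 0.0528 in the unmoderated test. Without 1 array their limma adjusted p ran from 0.0583 to 0.138. The class difference in median SD kept its negative sign in all alternatives run, from -0.0533 after scaling to -0.0274 without replicate 2. Narrower classes moved the median SD to 0.0559 for fibroblast-type and 0.131 for epithelial members, and quantile normalization moved the epithelial median to 0.0857. Zeros made up 5.82% ± 4.06 (SD, n = 5) of member values, while 16.5% of members had a zero on at least 1 array. Read as log2, Lamb1, Itgal and Col8a1 would be 1.05-, 1.18- and 1.07-fold. No paired analysis was possible because all arrays form 1 group. With 5 arrays and no signal level, neither the brightness behind a ratio nor the log base could be examined.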
